A study of Mus musculus with 2 samples.

Results

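The genes described here are 10 members of the Toll-like receptor system: the receptors Tlr1, Tlr2, Tlr4, Tlr7, Tlr8, Tlr9 and Tlr13, the co-receptor Cd14 and the adaptors Myd88 and Ticam1. They were chosen by symbol, with earlier results of these data known, and all 10 were among the 33696 genes of the deposited count matrix. The series holds 2 single-cell RNA libraries, 1 per group, from subcutaneous tumours of 4T1, a mouse breast cancer cell line. Both groups are labelled wild type. The control library is labelled PBS, and the treated library is labelled PCN, for an agent that the series' text calls PATCH. The number and strain of the animals, the dose and the time of sampling are not given in the labels. The control counts were not analysed here, so every value below is from the treated library and none shows an effect of the treatment.

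Toll-like receptors recognise conserved molecules of microbes and of damaged cells. Tlr1 pairs with Tlr2 at the cell surface to bind bacterial lipopeptides, and Tlr4 binds lipopolysaccharide, which Cd14 hands to it. Tlr7, Tlr8, Tlr9 and Tlr13 sit in endosomes and are known as sensors of nucleic acids: single-stranded RNA for Tlr7 and Tlr8, unmethylated CpG DNA for Tlr9 and bacterial ribosomal RNA for Tlr13. Myd88 is the adaptor of these receptors and leads to NF-kB, while Ticam1, also called TRIF, is the adaptor of Tlr3 and of Tlr4 inside the cell and leads to type I interferon. In tumours these receptors are best known from neutrophils, macrophages and dendritic cells.

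Promoter sequence was at hand in RefSeq (build GRCm38.p6) for 7 of the 10 genes, and Tlr4, Tlr7 and Cd14 were not matched. Below are the 250 bases before the annotated start, in the gene's own direction, for 4 genes whose pattern across cells differed: Tlr1 and Tlr13, a larger share of neutrophil than of macrophage RNA, Tlr8, the reverse, and Myd88, found in fibroblasts as well as in myeloid cells. Capitals mark GAGGAA, the core letters bound by the myeloid factor PU.1 (TTCCTC where it lies on the opposite strand), or an interferon response element, written as GAAA, any 2 bases and GAAA.
Tlr1 (chr5:64933559-64933808, minus strand): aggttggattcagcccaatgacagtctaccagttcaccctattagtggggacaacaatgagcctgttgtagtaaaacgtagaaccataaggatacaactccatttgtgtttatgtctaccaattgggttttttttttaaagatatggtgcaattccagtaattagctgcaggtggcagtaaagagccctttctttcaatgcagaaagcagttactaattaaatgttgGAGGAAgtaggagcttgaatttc
Tlr13 (chrX:106143025-106143274, plus strand): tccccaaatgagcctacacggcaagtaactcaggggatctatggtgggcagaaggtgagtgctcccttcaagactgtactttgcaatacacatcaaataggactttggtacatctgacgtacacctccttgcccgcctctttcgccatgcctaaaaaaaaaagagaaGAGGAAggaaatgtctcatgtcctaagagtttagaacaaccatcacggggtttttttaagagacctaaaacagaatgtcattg
Tlr8 (chrX:167264330-167264579, minus strand): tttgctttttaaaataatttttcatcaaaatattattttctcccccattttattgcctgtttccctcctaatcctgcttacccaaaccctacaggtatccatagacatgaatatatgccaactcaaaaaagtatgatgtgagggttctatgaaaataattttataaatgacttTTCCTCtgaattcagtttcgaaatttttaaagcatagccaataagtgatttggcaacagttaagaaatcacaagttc
Myd88 (chr9:119340019-119340268, minus strand): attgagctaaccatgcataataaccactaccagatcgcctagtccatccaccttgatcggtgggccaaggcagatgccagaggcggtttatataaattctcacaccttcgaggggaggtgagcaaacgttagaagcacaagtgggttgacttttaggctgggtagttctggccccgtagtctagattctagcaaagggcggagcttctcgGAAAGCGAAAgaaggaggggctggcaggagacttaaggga
On either strand, GAGGAA was found in 5 of the 8 windows of the 7 genes (in Tlr8, Tlr9, Tlr13, Ticam1 and 1 of the 2 windows of Tlr1, the one printed), and 23.3% of 32851 RefSeq promoter windows of the same length hold it. It lay 23 to 18 bases before the start in Tlr1 and 83 to 78 bases before it in Tlr13, and on the opposite strand 77 to 72 bases before it in Tlr8. The interferon response element was found in 1 of the 8 windows, that of Myd88, as GAAAGCGAAA 40 to 31 bases before the start, against 2.98% of all windows. The AP-1 letters TGANTCA were found in Tlr9, against 6.75% of windows. These motifs were chosen after the sequences had been seen, and a match describes letters, not a bound site.

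The treated library held 10835 cells that the authors kept, with 60652188 unique molecular identifiers (UMIs, each a counted RNA molecule), a median of 3575 UMIs per cell and a range of 500 to 19989. Of these barcodes, 33 were also listed for the control library, and leaving them out changed no count of members between classes given below. Cells were put in classes by the share of their UMIs from marker genes, none of them a member. The neutrophil-like class (S100a8, S100a9, Csf3r and G0s2 at 2% or more) held 3518 cells, or 32.5%, and the macrophage-like class (C1qa, C1qb, Csf1r, Apoe and Lyz2 at 0.3% or more) held 4672 cells, or 43.1%. The fibroblast-like class had 325 cells, the tumour-like class, named from keratins and Epcam, 322, the T/NK-like class 238, and 1760 cells met no rule. The ending "-like" is dropped below. Markers that the rules did not use were highest in their own class for 4 of 5 neutrophil, 7 of 7 macrophage, 5 of 5 fibroblast, 5 of 5 tumour and 6 of 6 T/NK genes. The unclassed cells were mixed, with summed markers of macrophages at 1223, of neutrophils at 1511 and of osteoclasts at 2895 counts per 1000000 UMIs (CPM). In the T/NK class 6 conventional dendritic cell markers summed to 178 CPM, all of it from Zbtb46 and Ccr7. Flt3, Xcr1, Clec9a and Cd209a were at 0, so this sum does not show dendritic cells in the class.

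Depth differed between the classes, and it bears on every comparison that follows. The median neutrophil had 1698 UMIs and the median macrophage 7168.5. Levels are therefore given in CPM of the class total, as UMIs per 1000 cells, and as the share of cells with a UMI after each cell was thinned to 1000 UMIs, which left 2987 neutrophils and 4552 macrophages. Intervals are exact 95% intervals, Poisson for sums of UMIs and Clopper-Pearson for shares, and cover counting error only. One library allows no replicate check, so nothing was tested, and a gene is counted as higher or lower where 2 levels are at least 2-fold apart and at least 20 UMIs were seen over both sides.

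In CPM most members were highest in myeloid cells. Against all other kept cells pooled, Tlr1, Tlr4, Tlr13 and Cd14 were higher in neutrophils, and Tlr2, Tlr7 and Tlr8 were higher in macrophages. The pooled cells hold the other myeloid class, and Tlr2 was within 2-fold between macrophages and neutrophils, at 127 and 111 CPM. In neutrophils 4 of the 9 members with enough UMIs were higher, where 10% of the 16445 genes tested were, and 2, Tlr7 and Ticam1, were lower, where 59.5% were. In macrophages 3 of 9 were higher and 0 lower, beside 6.71% and 25.6% of genes. In unclassed cells 0 were higher and 2, Tlr7 and Tlr8, lower, beside 8.17% and 9.72%. No member was higher in the fibroblast, tumour or T/NK class, where 7, 9 and 8 of 9 were lower. The share of all genes higher was 19.2%, 25.8% and 19% in these 3 classes, and lower 26.2%, 26.5% and 35.5%.

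**Figure D1:**
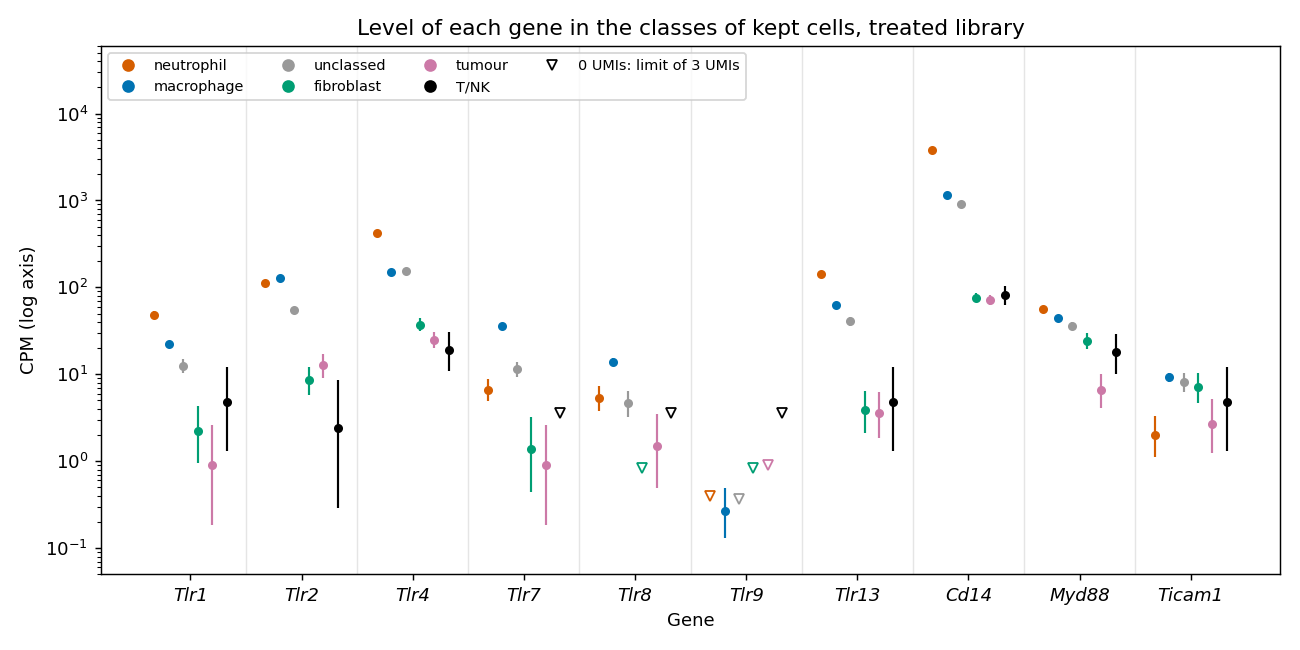
CPM of each of the 10 genes (log axis) in the 5 classes and the unclassed cells of the treated library. Points are sums of UMIs over a class with exact 95% Poisson intervals, and open triangles give the limit of 3 UMIs where none was counted. The neutrophil point is highest for Tlr1, Tlr4, Tlr13, Cd14 and Myd88, and the macrophage point for Tlr2, Tlr7, Tlr8, Tlr9 and Ticam1.

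Cd14, the co-receptor that binds lipopolysaccharide, was at 3798 CPM in neutrophils (interval 3754 to 3842), 1169 CPM in macrophages (1158 to 1180) and 919 CPM in unclassed cells. It was at 80.9 CPM in T/NK cells, 75.8 CPM in fibroblasts and 71.2 CPM in tumour cells, with overlapping intervals. In CPM the 3 non-myeloid classes thus did not differ in Cd14 beyond counting error, while each step between the others exceeded counting error. At 1000 UMIs per cell, 89.2% of neutrophils (88.0 to 90.2%), 57.3% of macrophages (55.9 to 58.8%) and 4.80% of T/NK cells (2.42 to 8.43%) had a Cd14 UMI. Unthinned, at median depths of 1698, 7168.5 and 2916.5 UMIs, these shares were 91.8%, 88.3% and 14.7%. In CPM the fibroblast and tumour levels were not above that of T/NK cells beyond counting error. Per 1000 cells, Cd14 had 849 UMIs in fibroblasts (752 to 956), 736 in tumour cells (645 to 836) and 286 in T/NK cells (222 to 362). On that scale T/NK cells were lower, while the intervals of fibroblasts and tumour cells overlap. The part of free RNA in these values was not tested.

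Tlr4, the lipopolysaccharide receptor, had 427 CPM in neutrophils (412 to 442), 151 CPM in macrophages (147 to 155) and 155 CPM in unclassed cells. Its level was 37.1 CPM in fibroblasts (31.1 to 43.9), 24.9 CPM in tumour cells (19.9 to 30.9) and 19.0 CPM in T/NK cells (10.9 to 30.9). Unclassed cells and macrophages did not differ beyond counting error, and neither did tumour and T/NK cells. At equal depth 31.9% of neutrophils (30.2 to 33.6%), 15.0% of macrophages and 1.31% of T/NK cells had a Tlr4 UMI. Of the neutrophils with a Tlr4 UMI, 866 of 952 (91.0%) also had one of Cd14, and of such macrophages 361 of 682 (52.9%) did. Among all neutrophils and macrophages at this depth, 89.2% and 57.3% had a Cd14 UMI, so the overlap was close to the share of the whole class.

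Tlr13, a receptor that mice have and humans lack, was also highest in neutrophils. It was at 141 CPM in neutrophils (133 to 150), 62.5 CPM in macrophages (59.9 to 65.0) and 40.6 CPM in unclassed cells. In fibroblasts, tumour cells and T/NK cells it was at 3.84, 3.61 and 4.76 CPM, from 14, 12 and 4 UMIs. Relative to Cd14 this was 5.07, 5.06 and 5.88 UMIs of Tlr13 per 100 of Cd14, beside 5.34 in macrophages and 3.73 in neutrophils. In fibroblasts, tumour cells and T/NK cells the intervals were 2.74 to 8.66, 2.58 to 9.01 and 1.56 to 15.8. Each holds both the macrophage and the neutrophil ratio, so these few UMIs cannot tell them apart.

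The partners Tlr1 and Tlr2 differed in where they were highest. Tlr1 was at 48.4 CPM in neutrophils (43.5 to 53.6) and 22.6 CPM in macrophages (21.1 to 24.1), and at 4.76 CPM or less in fibroblasts, tumour cells and T/NK cells, from 8, 3 and 4 UMIs. Tlr2 was at 127 CPM in macrophages (124 to 131), 111 CPM in neutrophils (104 to 119) and 54.3 CPM in unclassed cells. At equal depth the share of cells with a Tlr2 UMI did not differ beyond counting error, at 10.6% of macrophages (9.75 to 11.6%) and 9.98% of neutrophils (8.92 to 11.1%). In RefSeq Tlr1 lies next to Tlr6, a close paralog, so reads that fit both genes could have been lost or split, and its level is uncertain in that respect.

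The RNA sensors Tlr7 and Tlr8, neighbours on the X chromosome, were macrophage genes here. Tlr7 was at 35.9 CPM in macrophages (34.0 to 37.9), 11.4 CPM in unclassed cells and 6.64 CPM in neutrophils (4.93 to 8.76). Fibroblasts had 5 Tlr7 UMIs, tumour cells 3 and T/NK cells 0. In T/NK cells 3 UMIs are 3.57 CPM, and the exact interval of a count of 0 reaches 4.39 CPM. Tlr8 was at 13.9 CPM in macrophages (12.8 to 15.2), 5.31 CPM in neutrophils (3.80 to 7.24) and 4.62 CPM in unclassed cells. It had no UMI in fibroblasts or T/NK cells. Taking 3 UMIs of the class as the limit, it was 12.8-fold and 2.81-fold lower there than in the other cells. The exact lower bounds of these ratios were 10.4 and 2.28. The share of cells at equal depth went the same way, with 3.60% of macrophages and 0.536% of neutrophils for Tlr7, and 1.25% and 0.402% for Tlr8.

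Tlr9, the CpG DNA receptor, was close to absent from the counts, with 10 UMIs in all kept cells. All 10 were in macrophages, which gives 0.270 CPM (0.129 to 0.496). The limit of a count of 0 was 0.399 CPM in neutrophils and 3.57 CPM in T/NK cells, above the macrophage level, so a difference from either class was not detectable at this depth. Against all other kept cells pooled, with 0 UMIs, Tlr9 was at least 2.12-fold higher in macrophages, and the lower bound of the ratio was 1.42. It is not in the counts of members above, since 10 UMIs are under the minimum of 20, and with no minimum 4 members were higher in macrophages. Plasmacytoid dendritic cells and B cells are its best known sources. By their markers, 2 kept cells were plasmacytoid dendritic-like, with no UMI of any member, and neither was a neutrophil, macrophage or unclassed cell. Another 65 were B-like, with 0 Tlr9 UMIs. The limit of a count of 0 was 359 CPM in the first set and 16.5 CPM in the second. Both are far above the macrophage level, so these sets cannot show whether Tlr9 is absent from such cells.

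The adaptors were spread more evenly than the receptors. Myd88 was at 55.9 CPM in neutrophils (50.7 to 61.5), 44.2 CPM in macrophages (42.1 to 46.4), 36.1 CPM in unclassed cells and 24.2 CPM in fibroblasts (19.4 to 29.8). In T/NK cells it was at 17.8 CPM (9.99 to 29.4) and in tumour cells at 6.61 CPM (4.14 to 10.01). Fibroblasts were thus at 0.576 times the level of the other cells (0.460 to 0.712), and tumour cells at 0.154 times (0.0964 to 0.234). At equal depth 4.06% of fibroblasts (2.18 to 6.85%), 4.50% of macrophages and 0 of 278 tumour cells had a Myd88 UMI.

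Ticam1 was at 9.20 CPM in macrophages (8.25 to 10.2), 8.14 CPM in unclassed cells and 7.14 CPM in fibroblasts (4.66 to 10.5). It was at 4.76 CPM in T/NK cells, 2.70 CPM in tumour cells and 1.99 CPM in neutrophils (1.11 to 3.29). Neutrophils, where Cd14, Tlr4 and Myd88 were highest, were thus lowest for Ticam1, with 15 UMIs in 3518 cells. Neighbouring classes in this order had overlapping intervals throughout, but those of neutrophils and macrophages did not meet.

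Set against Cd14, both adaptors had more UMIs in fibroblasts, T/NK cells and tumour cells, where Cd14 was low, than in macrophages or neutrophils. For each 100 Cd14 UMIs, fibroblasts had 31.9 Myd88 UMIs (24.8 to 40.7), T/NK cells 22.1 (11.7 to 39.0), tumour cells 9.28 (5.71 to 14.4), macrophages 3.78 and neutrophils 1.47. For Ticam1, fibroblasts had 9.42 (6.05 to 14.1), T/NK cells 5.88 (1.56 to 15.8) and tumour cells 3.80 (1.72 to 7.33). Macrophages had 0.787 and neutrophils 0.0525. The intervals of fibroblasts and T/NK cells overlap for both adaptors, and those of fibroblasts and tumour cells overlap for Ticam1. Tlr4 also had more UMIs per 100 of Cd14 in fibroblasts, 48.9 (39.5 to 60.3), and in tumour cells, 35.0 (26.9 to 45.1), than in neutrophils, 11.2, or macrophages, 12.9 (12.6 to 13.3). In T/NK cells the Tlr4 value was 23.5 from 16 UMIs, and its interval, 12.7 to 41.0, overlaps those of fibroblasts, tumour cells and macrophages. The part of free RNA in these ratios was not tested. The ratio of Tlr13 in fibroblasts and tumour cells was within counting error of that in macrophages and also of that in neutrophils.

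**Figure D2:**
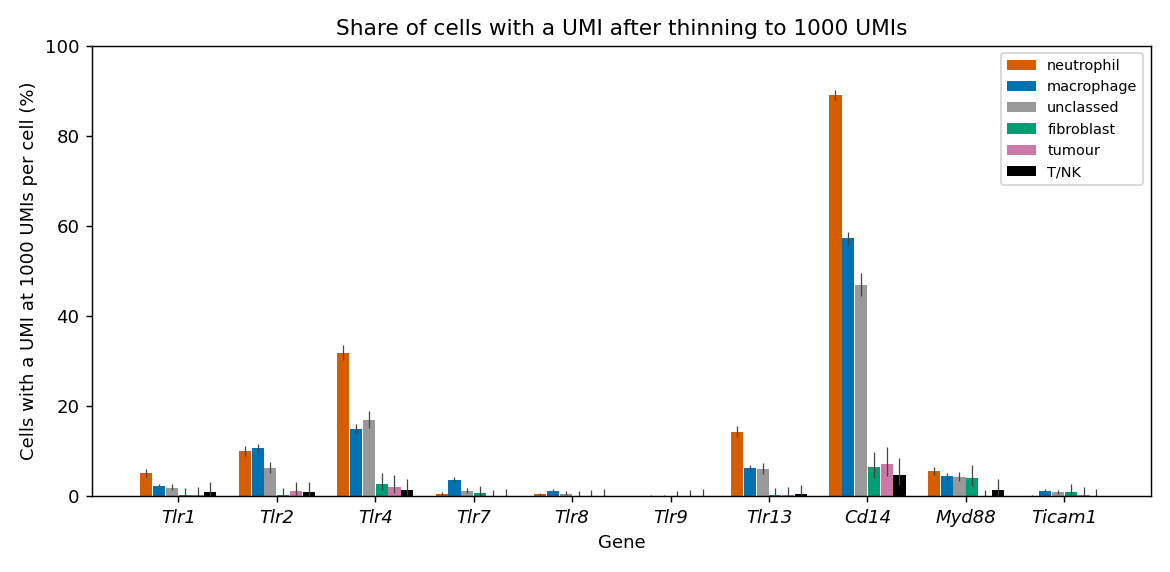
Percent of cells with a UMI of each gene after every cell was thinned to 1000 UMIs, by class, with exact 95% Clopper-Pearson intervals. Cd14 reached 89.2% of neutrophils and 57.3% of macrophages, and Tlr4 31.9% and 15.0%, while Tlr2 was near 10% in both classes.

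Single cells seldom gave more than 1 receptor at this depth. At 1000 UMIs, at least 1 of the 7 receptors was seen in 51.1% of neutrophils (49.3 to 52.9%), 34.0% of macrophages (32.7 to 35.4%) and 28.0% of unclassed cells. At least 2 were seen in 10.4% of neutrophils, 4.64% of macrophages and 4.70% of unclassed cells, and the most in any cell was 4. In fibroblasts, tumour cells and T/NK cells the share with any receptor was 4.06%, 3.60% and 3.06%.

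The 2 large myeloid classes were then set against each other directly. Levels in CPM were higher in neutrophils for Cd14, by 3.25-fold (3.20 to 3.30), for Tlr4, by 2.82-fold (2.70 to 2.95), for Tlr13, by 2.27-fold (2.10 to 2.44), and for Tlr1, by 2.14-fold (1.89 to 2.43). They were higher in macrophages for Tlr7, by 5.41-fold (4.08 to 7.32), Ticam1, by 4.61-fold (2.76 to 8.34), and Tlr8, by 2.62-fold (1.90 to 3.72). Tlr2 and Myd88 stayed within 2-fold. So 3 of 9 members were higher in macrophages and 4 in neutrophils, beside 51.4% and 12.7% of 14520 genes. The median log2 ratio of the members, macrophage to neutrophil, was -0.34, and that of all genes tested was 1.01.

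Counted per cell, no member was 2-fold higher in neutrophils. Macrophages then had 9278 Cd14 UMIs per 1000 cells and neutrophils 8125, a ratio of 1.14 (1.12 to 1.16). For Tlr4 the numbers were 1201 and 913, a ratio of 1.32 (1.26 to 1.37), for Tlr13 496 and 303, and for Tlr1 179 and 103. The direction for Tlr1, Tlr4, Tlr13, Cd14 and Myd88 was thus reversed on this scale, on which a macrophage had 7937 UMIs of all genes on average and a neutrophil 2139. Tlr7 was at 285 and 14.2 UMIs per 1000 cells, Tlr8 at 111 and 11.4, Ticam1 at 73.0 and 4.26, Tlr2 at 1009 and 238 and Myd88 at 351 and 120. These 5 were more than 2-fold higher in macrophages, as were 86% of all genes, with 3.15% lower. The order of neutrophils and macrophages thus held on both scales for Tlr2, Tlr7, Tlr8 and Ticam1. RNA content per cell and capture per cell cannot be told apart here.

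**Figure D3:**
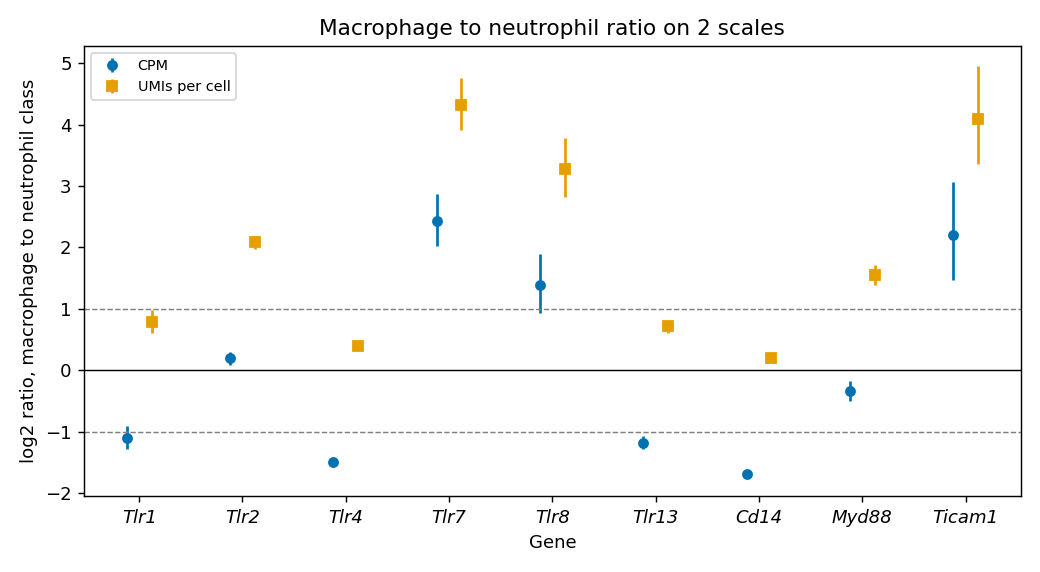
log2 ratio of the macrophage to the neutrophil class for 9 genes, in CPM (circles) and in UMIs per cell (squares), with exact 95% conditional intervals of the ratio. Dashed lines mark 2-fold. In CPM, Tlr1, Tlr4, Tlr13, Cd14 and Myd88 lie below 0, and per cell all 9 lie above 0.

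Cells that met the rules of 2 or more classes numbered 345 (whether they are doublets was not tested), and 311 of them were placed in the neutrophil class. Without them, neutrophils were at 465 CPM for Tlr4 and 4075 CPM for Cd14. Tlr7 was then at 5.59 CPM from 35 UMIs, Tlr8 at 4.95 CPM from 31 and Ticam1 at 1.28 CPM from 8. The same 7 members stayed past 2-fold in the same directions between macrophages and neutrophils. At the rule's edge, the 181 cells just under the neutrophil threshold were at 346 CPM of Tlr4 and 2202 CPM of Cd14, and the 168 just over it at 398 and 2744 CPM. Cells just outside the class thus carried these genes as well. The median neutrophil had 0.0713% of its UMIs from the macrophage rule's genes, and the median macrophage 0.0257% from the neutrophil rule's.

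Neutrophils were divided by marker genes that mark maturation and activation. Retnlg neutrophils (1365 cells) carried Retnlg, Mmp8, Ngp, Camp and Ltf, granule and secreted proteins of newly made neutrophils, and Ccl3 neutrophils (658 cells) carried the chemokines Ccl3 and Ccl4. Tlr4 was at 268 CPM in Retnlg neutrophils (252 to 285), 576 CPM in Ccl3 neutrophils (535 to 619) and 580 CPM in the remaining 1448. Myd88 went the other way between the first pair, at 61.8 CPM in Retnlg (54.1 to 70.4) and 29.7 CPM in Ccl3 neutrophils (21.0 to 40.8), with 59.3 CPM in the rest. The receptor of lipopolysaccharide was thus 2.15-fold higher (1.95 to 2.37) and its adaptor 2.08-fold lower (1.47 to 3.01) in Ccl3 than in Retnlg neutrophils.

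These were the 2 members past 2-fold of 8 with enough UMIs, 1 in each direction, where 7.64% of 7907 genes were higher and 18.4% lower. Tlr13 was 1.56-fold higher (1.32 to 1.84) in Ccl3 neutrophils and Cd14 1.23-fold higher (1.19 to 1.27), while Tlr2 was at 0.808 times (0.657 to 0.988). At equal depth, 38.5% of Ccl3 and 22.8% of Retnlg neutrophils had a Tlr4 UMI, and 2.79% and 6.61% a Myd88 UMI. The Retnlg subset held 172 cells that met 2 or more class rules and the Ccl3 subset 32. Without them the log2 ratios were 0.97 for Tlr4 and -0.96 for Myd88, both just within 2-fold, so 0 members were counted in either direction. With subset thresholds multiplied by 2 or by 0.5, the log2 ratio of Myd88 was -0.92 or -0.85, also within 2-fold. Per cell, Tlr4 was at 1119 UMIs per 1000 Ccl3 and 725 per 1000 Retnlg neutrophils, and Myd88 at 57.8 and 167. Cd14 turned direction on that scale, at 8122 UMIs per 1000 Ccl3 and 9183 per 1000 Retnlg neutrophils, and Tlr13 was at 336 and 299.6.

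**Figure D4:**
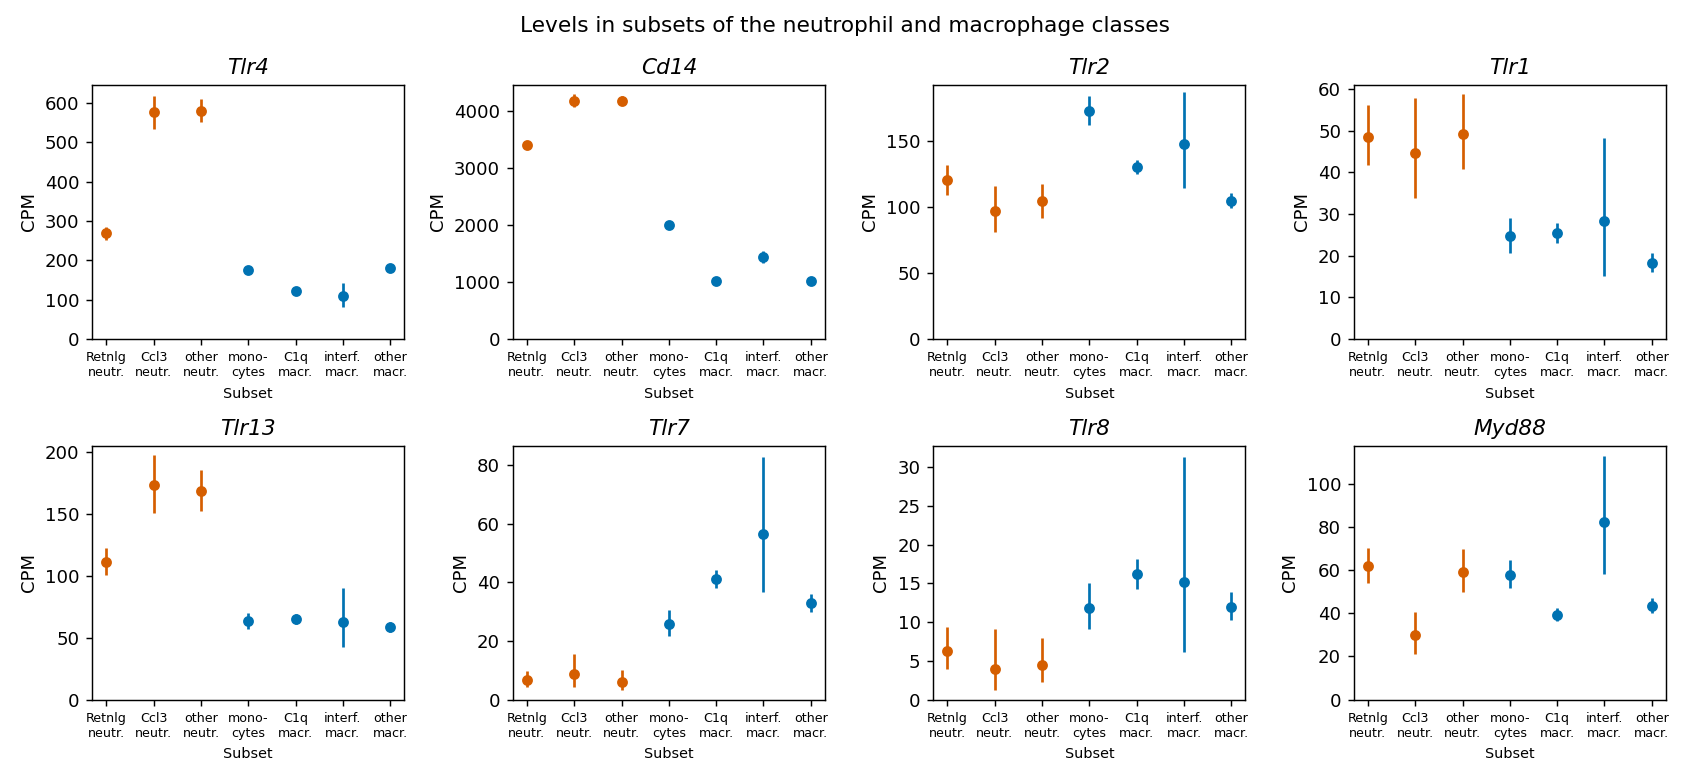
CPM of 8 of the genes in 3 subsets of the neutrophil class (orange) and 4 of the macrophage class (blue), each panel on its own linear axis from 0, with exact 95% Poisson intervals. Tlr4 is lower in Retnlg neutrophils than in the other 2 neutrophil subsets, Cd14 is higher in monocytes than in C1q macrophages, and Myd88 is low in Ccl3 neutrophils and high, with a wide interval, in interferon macrophages.

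Within the macrophage class, the co-receptor was higher in the cells nearest to blood monocytes. Monocytes (854 cells with Ccr2, Vcan, Ly6c2, Plac8 and Chil3 and little C1q) had Cd14 at 2003 CPM (1966 to 2041), and C1q macrophages (1806 cells) at 1013 CPM (998 to 1028), a ratio of 1.98 (1.93 to 2.03). Tlr4, at 175 and 121 CPM, and Tlr2, at 173 and 130 CPM, were also above counting error in monocytes, by 1.44-fold and 1.32-fold. Per 1000 cells neither was higher in monocytes: Tlr4 was at 1122 UMIs in monocytes (1052 to 1195) and 1151 in C1q macrophages (1102 to 1201), and Tlr2 at 1109 (1039 to 1182) and 1240 (1189 to 1292). Tlr7 was the reverse, at 25.9 CPM in monocytes and 41.1 CPM in C1q macrophages, a ratio of 0.630 (0.522 to 0.755). None of 9 members was past 2-fold, while 4.47% of 12718 genes were higher and 12.3% lower. Tlr1, Tlr13 and Ticam1 were within counting error of even, with intervals of the ratio from 0.793 to 1.18, 0.858 to 1.10 and 0.629 to 1.26.

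Macrophages with an interferon signature (Isg15, Ifit1, Ifit2, Ifit3, Rsad2 and Cxcl10) were few, 57 cells. Myd88 was at 82.5 CPM in them (58.4 to 113) and 39.4 CPM in C1q macrophages (36.5 to 42.5), a ratio of 2.09 (1.47 to 2.90) from 38 UMIs. It had a UMI in 28 of the 57 cells before thinning and in 0 of 56 after it, so no order is read from the thinned share. With subset thresholds multiplied by 0.5 the log2 ratio was 0.89, and per cell it was 0.83, both within 2-fold. Myd88 was the 1 member of 9 past 2-fold, with 8.11% of 12214 genes higher and 21.9% lower. Tlr7 was at 56.4 CPM (36.9 to 82.7) and 41.1 CPM, a ratio of 1.37 whose interval, 0.891 to 2.03, includes 1. In neutrophils the corresponding subset held 47 cells, too few to compare.

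Of 47 other genes of the pathway, 45 had enough UMIs in macrophages and neutrophils together, and 17 were higher in macrophages and 8 in neutrophils. Their median log2 ratio was 0.43, beside 1.01 for all genes. The shares over all genes were 51.4% and 12.7%, as above. Of genes that fold and carry the receptors 4 of 4 were higher in macrophages, among them Unc93b1, which escorts the endosomal receptors, at 465 and 129 CPM. Of 9 receptors and co-receptors with enough UMIs, 6 were higher in macrophages and 2 in neutrophils. Ly86, partner of Cd180, was at 104 CPM in macrophages and 5.98 CPM in neutrophils, 17.4-fold apart (12.9 to 23.8). Cd180, a Toll-like receptor homologue without a signalling domain, was at 30.9 and 2.52 CPM, Cd36, a scavenger co-receptor of Tlr2, at 212 and 19.4 CPM, and Tlr3, the sensor of double-stranded RNA that uses Ticam1, at 7.31 and 0.797 CPM. Ly96, which holds lipopolysaccharide on Tlr4, stayed within 2-fold, at 49.6 and 28.8 CPM.

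Adaptors and kinases went both ways between neutrophils and macrophages. Of 18 adaptors and kinases, 5 were higher in macrophages and 4 in neutrophils (Tirap, Irak2, Irak3 and Pik3ap1), beside 51.4% and 12.7% of all genes. Irak1 was 4.10-fold higher in macrophages (3.20 to 5.33), and Irak4 and Traf6 stayed within 2-fold. Tirap, which bridges Tlr2 and Tlr4 to Myd88, was at 41.5 CPM in neutrophils and 9.28 CPM in macrophages, 4.47-fold apart (3.82 to 5.22). Pik3ap1, a link from Toll-like receptors to phosphoinositide 3-kinase, was at 791 and 174 CPM, and Irak3, a kinase homologue that restrains the pathway, at 155 and 44.6 CPM. Among the receptors and co-receptors, Lbp, the lipopolysaccharide binding protein, was at 16.7 and 3.24 CPM. Ticam2, which bridges Tlr4 to Ticam1, was the reverse, at 1.86 and 8.14 CPM. Tlr6, which like Tlr1 pairs with Tlr2, was also higher in neutrophils, at 26.6 and 8.90 CPM. Values for Unc93b1, Ly96, Irak1, Irak4, Traf6, Ticam2 and Tlr6 were chosen after they had been seen. The transcription factors were nearly even, with 1 of 7, Irf5, higher in macrophages, and of 7 inhibitors Nfkbia and Nfkbiz were higher in neutrophils and Sigirr in macrophages. Per cell, 37 of these 45 genes were higher in macrophages and 0 in neutrophils, beside 86% and 3.15% of all genes.

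In Ccl3 against Retnlg neutrophils, 7 of 38 pathway genes with enough UMIs were higher (Irak2, Traf6, Tbk1, Ikbke, Nfkb2, Nfkbia and Tnfaip3) and 7 lower (Lbp, Cd36, Unc93b1, Irak4, Ikbkg, Irf3 and Cyld), beside 7.64% and 18.4% of all genes. In monocytes against C1q macrophages 2 of 45 were higher, Lbp and Irak3, and 2 lower, Tlr12 and Sigirr, beside 4.47% and 12.3% of all genes. In interferon against C1q macrophages 6 were higher, with Irf7 at 458 and 45.2 CPM, Socs1 at 93.3 and 10.5 CPM and Tlr3 at 58.6 and 9.31 CPM, and 3 lower, among them Cd36, beside 8.11% and 21.9% of all genes.

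The genes most like each member were sought by Pearson's r of log2(CPM + 10) over 11 separate groups of cells, among 8814 genes of at least 500 UMIs. The groups share 1 library, so r is a description. Tlr4 was most like Cxcl2, a chemokine that draws neutrophils (r = 0.98), and Cd14 was most like Arg2, an arginase, Ccr1, a chemokine receptor, and C5ar1, the receptor of complement C5a (r = 0.997, 0.996 and 0.995). Tlr1 and Tlr13 had the same leading gene, Rab20 (0.98 and 0.99), followed for Tlr13 by Plek and Ccr1. Tlr2 was most like Lrrc25 (0.98). Tlr7 was most like Tifab, Tifa and Aif1 (0.98 each), and Tlr8 like Lyz2, a gene of the macrophage rule (0.98). Myd88 was most like Pxk, with a lower value than the others (0.96). Tlr9 and Ticam1 had too few UMIs for this.

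Small marker-defined sets add further cell types. In 76 cells with endothelial markers, 67 of them unclassed and 7 in the macrophage class, Tlr4 was at 77.8 CPM (56.7 to 104) from 45 UMIs. Myd88 was at 31.1 CPM from 18 UMIs and Cd14 at 156 CPM. The part of the macrophage-class cells in these values was not tested. Tlr4 is known to be active in endothelium. In the 65 B-like cells Tlr1 was at 38.6 CPM (15.5 to 79.6) from 7 UMIs, Tlr7 had 3 UMIs and Cd14 was at 88.3 CPM, near the level in T/NK cells. In 15 cells with conventional dendritic cell markers, all unclassed, Cd14 was at 244 CPM (165 to 348) from 30 UMIs. Myd88 was at 65.1 CPM (28.1 to 128) from 8 UMIs there and Tlr13 at 40.7 CPM (13.2 to 94.9) from 5. Tlr2 had 1 UMI in these cells and the other members 0, with a limit of 24.4 CPM.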

How the data were processed

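Per the labels' protocols, libraries were made with the Chromium 3' v3 kit. Per the file headers, the authors used Cell Ranger 8.0.1, and they deposited UMI counts that are not normalized. STAR is named in the submitters' processing notes. A genome build is not given in the sources used here. The deposited list of kept cells assigns barcodes to libraries: all 10835 barcodes of the treated group were in the matrix, against 37 of 11643 control barcodes, so the matrix was taken as the treated library.

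The members, class rules and lists were chosen with earlier results of these data known. UMIs were summed over the kept cells of a class with Python 3.11.15, numpy 2.4.6 and scipy 1.17.1. Ratios have exact conditional Poisson intervals. A cell meeting several rules took the first of neutrophil, fibroblast, tumour, T/NK and macrophage; the other thresholds were fibroblast 0.5% (Col1a2, Col3a1, Dcn), tumour 0.1% (Krt8, Krt18, Krt7, Epcam) and T/NK 0.1% (Cd3e, Cd3g, Trbc2, Ncr1). Subsets, first match, were interferon (0.5%), Ccl3 (1%) and Retnlg (0.2%) in neutrophils, and interferon (0.5%), C1q (0.5%) and monocyte (0.1%, with C1q under 0.1%) in macrophages; sets under 50 cells were not compared. B-like, endothelial and dendritic sets needed 0.1% of UMIs and 2 markers. No doublet caller was run and free RNA was not subtracted. The ratio step was tested on simulated data. Of the 47 pathway genes, those named were the 4 with the largest ratio in each direction and at least 50 UMIs, and others where stated. Likeness names 3 genes at most per member. Medians of log2 ratios add 0.5 to each sum. Promoter matches are described beside the sequences.

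Alternatives covered the cells used, thresholds, cells meeting 2 or more rules, weighting, depth, UMI minimum and thinning. Leaving out barcodes listed for both libraries, and cells meeting 2 or more rules within subsets, were added after seeing the data.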

Additional observations from a re-analysis of the deposited data

Results flagged for a closer look

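The 1474 barcodes that the authors left out of the kept cells, 1097 of them with 20000 UMIs or more, held 16124 UMIs of the 10 genes, which no comparison above uses. This was 445 CPM, beside 1757 CPM in kept cells and a limit of 0.0828 CPM for a count of 0. By the same class rules, 436 of them were tumour-like, with a median of 29962.5 UMIs, and there Myd88 was at 10.97 CPM from 169 UMIs (9.37 to 12.7), Tlr4 at 15.8 CPM and Cd14 at 63.9 CPM. In kept tumour cells Myd88 was at 6.61 CPM from 22 UMIs (4.14 to 10.01), and the intervals overlap. In the 459 macrophage-like barcodes left out, Cd14 was at 966 CPM, Tlr4 at 95.9 CPM and Tlr7 at 23.2 CPM, and in the 242 fibroblast-like ones Myd88 was at 21.2 CPM. The 53 neutrophil-like barcodes left out had a median of 736 UMIs, with Tlr4 at 104 CPM (69.9 to 149.9) from 29 UMIs and Cd14 at 1271 CPM (1142 to 1410), beside 427 and 3798 CPM in kept neutrophils. How many of these barcodes hold more than 1 cell was not tested.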

How the results depend on the processing

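Of 140 values of the 18 counts of members past 2-fold under alternatives, 125 were within 1.5 times the reported count and 15 were not. Counted per cell, the members higher in neutrophils than in other cells were 0 and those lower 5, those higher in macrophages 7, those higher in macrophages than in neutrophils 5 and the reverse 0, those higher in Ccl3 than in Retnlg neutrophils 0 and lower 2, those lower in monocytes than in C1q macrophages 2, and those higher in interferon than in C1q macrophages 0. With each cell weighted equally, 2 members were lower in macrophages. With other classes at equal weight 1 was lower in neutrophils, and 6 were higher there, within 1.5 times the 4 reported. With subset thresholds multiplied by 0.5, 0 members were lower in Ccl3 neutrophils and 0 higher in interferon macrophages. Without cells meeting 2 or more class rules, the counts between Ccl3 and Retnlg neutrophils were 0 and 0. Per cell, log2 ratios of macrophages to neutrophils reversed to 0.79 for Tlr1, 0.40 for Tlr4, 0.71 for Tlr13, 0.19 for Cd14 and 1.55 for Myd88. Others that reversed per cell were Cd14 at -0.18 and Tlr7 at -0.073 (Ccl3 to Retnlg), and Tlr4 at -0.037 and Myd88 at -0.0096 (monocytes to C1q). The ratio of Tlr4 in interferon to C1q macrophages was 0.11 with thresholds multiplied by 0.5. Unthinned, the share of cells with a UMI was higher in macrophages by 5.17 points for Tlr1, 7.32 for Tlr4, 10.9 for Tlr13 and 16.8 for Myd88, where it was lower at equal depth. The cause was not tested. No paired analysis was possible because each group has 1 library and counts of 1 were analysed. Depth limits Tlr9 most, with 10 UMIs, and any member in T/NK cells, where 3 UMIs are 3.57 CPM.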
